A study of Homo sapiens with 2 samples.

Results

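The genes examined here are 7 regulators and co-factors of epithelial-mesenchymal transition that bind DNA as repressors or activators (ZEB1, ZEB2, SNAI1, SNAI2, TWIST1, TWIST2 and PRRX1), their E-protein partner TCF4, and 2 structural genes of mesenchymal cells (VIM and FN1). These 10 genes were chosen by name from the 20033 protein-coding genes of the GENCODE annotation. Their open chromatin was taken as every peak that overlapped the gene body or the 20 kb on either side of it, and a peak within 1 kb of any annotated transcription start site (TSS) of the gene was called a TSS peak. By this rule 86 of 245736 peaks in replicate 1 and 96 of 259745 peaks in replicate 2 belonged to the 10 loci, and overlapping peaks merged into 103 of 279030 regions. The cells were CAMA-1, an established human breast adenocarcinoma line of epithelial origin, grown in culture, with no treatment named in the sample labels. Open chromatin was measured in 2 biological replicates of 50000 cells each by ATAC-seq, which uses Tn5 transposase to cut and tag DNA where it is accessible. There was 1 cell line and 1 condition, so values are described beside the same measure over the whole genome and no groups were compared.

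Epithelial-mesenchymal transition is the program by which epithelial cells loosen their junctions and take on the shape and motility of mesenchymal cells. SNAI and ZEB proteins are zinc-finger repressors that bind E-box sequences, among others in the promoter of the E-cadherin gene CDH1. TWIST proteins are basic helix-loop-helix factors that bind E-boxes as dimers with E-proteins such as the product of TCF4. PRRX1 is a homeodomain factor of embryonic mesenchyme. Vimentin, encoded by VIM, is the intermediate filament of mesenchymal cells, and fibronectin, encoded by FN1, is a glycoprotein of the extracellular matrix. In luminal breast cells these programs are typically silent while junction and keratin genes are active.

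The strength of each peak is given as its height, the number of reads stacked at its highest point, recovered from the fold enrichment in the peak list. The lowest height listed was 11 in either replicate, the median was 35, and the highest was 1744 in replicate 1 and 1759 in replicate 2. The total number of reads is not given by the peak lists, so depth is known only through these heights. A locus without a listed peak was therefore below the caller's threshold, which is not the same as closed. All 5 luminal breast genes checked (ESR1, FOXA1, GATA3, KRT8 and KRT18) had a peak over the canonical TSS in both replicates. So did all 5 epithelial genes checked, which included KRT8 and KRT18 again. The luminal genes were not all high. Heights ran from 111 and 93 reads at ESR1 (mean percentile 18.4 among covered canonical TSSs) and 209 and 225 at GATA3 (46.1) to 608 and 535 at KRT8 (92.6). Canonical TSSs lay under peaks in both replicates for 1 of 6 blood genes (CD14), 0 of 4 endothelial genes and 0 of 6 fibroblast genes. The share over all protein-coding genes was 65.0%.

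Open chromatin at the start sites of the 10 genes ranged from strong to none listed. The canonical TSS, the start of the transcript that the annotation ranks first, lay under a peak in both replicates for 5 of 10 genes, compared with 65.0% of all protein-coding genes. These were SNAI1, SNAI2, ZEB1, TWIST1 and FN1. The canonical TSS of ZEB2 lay under a peak in replicate 2 alone, and those of TWIST2, PRRX1, TCF4 and VIM lay under none. Counting a peak within 1 kb of any annotated TSS raised the number to 7 of 10, compared with 79.3% of all genes, by adding TCF4 and VIM. Of the 203 annotated TSSs of the 10 genes, 31 (15.3%) had a peak within 1 kb in both replicates, against 63.8% of all annotated TSSs. Most of the 203 belonged to TCF4 (90) and ZEB2 (46).

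**Figure D1:**
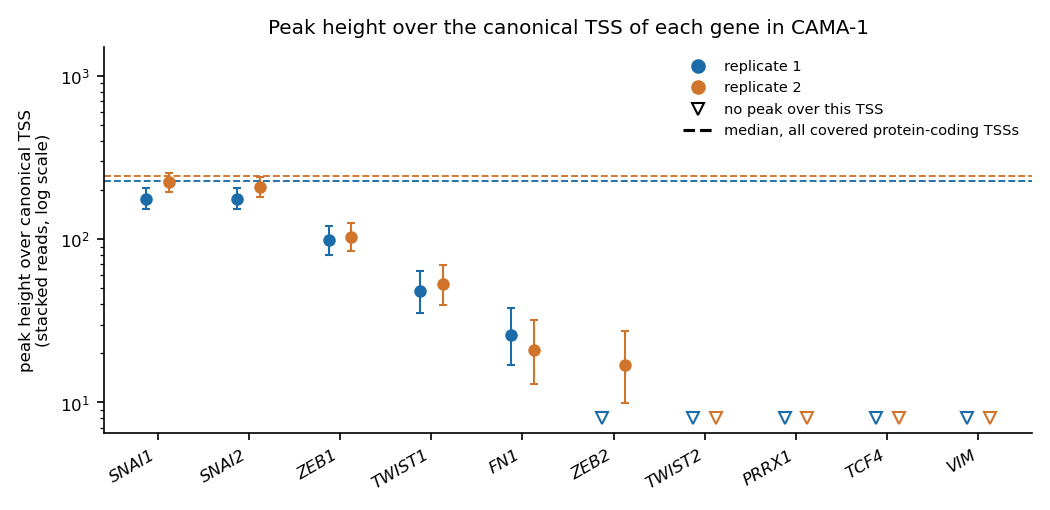
Peak height over the canonical TSS of each gene (y axis, stacked reads, log scale) in replicate 1 (blue) and replicate 2 (orange), with bars for 95% Poisson intervals, open triangles where no peak covered the TSS, and dashed lines at the medians over all covered canonical TSSs (226 and 243). SNAI1 and SNAI2 lie below the dashed lines, FN1 at 26 and 21, and 4 genes have no peak in either replicate.

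Of the 5 covered canonical TSSs, that of SNAI1 stood at 177 reads in replicate 1 and 224 in replicate 2, and SNAI2 at 177 and 209, so that their replicate values overlapped. ZEB1 followed at 99 and 103, TWIST1 at 48 and 53, and FN1 at 26 and 21. The replicate values of each of these 3 genes lay below those of the gene before it. Poisson intervals cover counting error only, not variation between cultures or libraries, and duplicate molecules cannot be recognised in peak lists. By counting error alone, these intervals separated ZEB1 from both SNAI genes and from TWIST1 in each replicate. They separated TWIST1 from FN1 in replicate 2 (39.7 to 69.3 against 13 to 32.1) but not in replicate 1 (35.4 to 63.6 against 17 to 38.1). Among all covered canonical TSSs the mean percentile over the replicates was 42.0 for SNAI1, 40.3 for SNAI2, 17.9 for ZEB1, 7.86 for TWIST1 and 2.43 for FN1.

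Human promoters that are rich in CpG dinucleotides tend to be open in most cell types, and start sites were therefore also read against their CpG content. Promoters were called CpG-rich where the sequence from 500 bp before to 500 bp after the canonical TSS had at least 0.6 of the expected CpGs and at least 50% GC. By this measure 8 of the 10 genes were CpG-rich, the others being ZEB2 (0.53 of expected, 49.4% GC) and PRRX1 (0.58 of expected, 56.7% GC). Of the 8, 5 had a peak within 1 kb of the canonical TSS in both replicates, compared with 89.6% of the 12976 CpG-rich promoters in the genome. The 3 that did not were TWIST2 (0.84 of expected), TCF4 (0.90) and VIM (0.79), of which VIM had a peak of 15 reads at 738 bp in replicate 2 only. TWIST2 and TCF4 were thus among the 1215 CpG-rich promoters with no peak within 1 kb in either replicate. Of the marker genes checked above, 4 of the 5 luminal genes were CpG-rich, and none of the blood, endothelial or fibroblast genes.

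**Figure D2:**
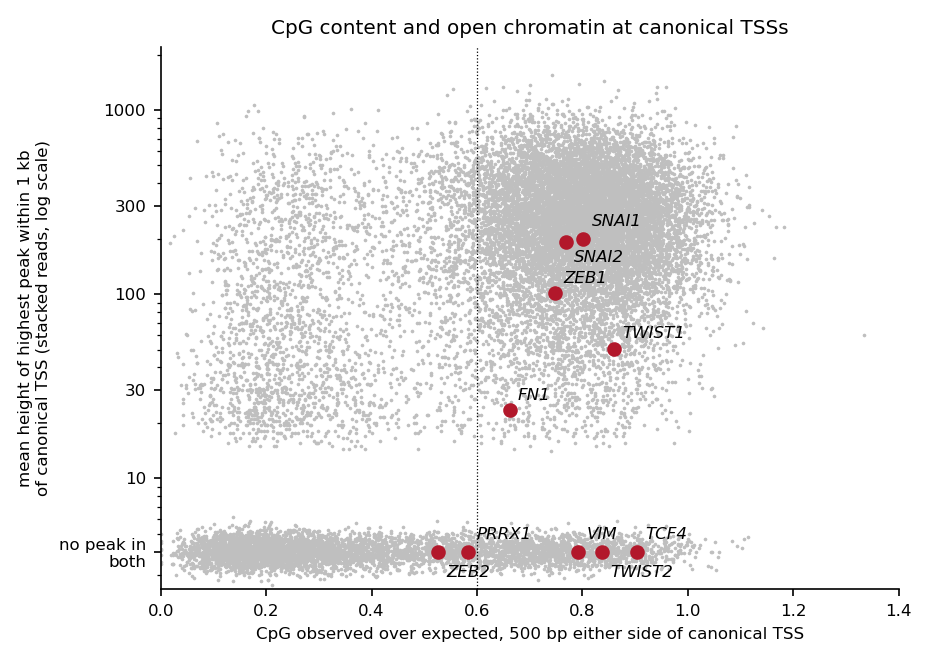
Mean height of the highest peak within 1 kb of the canonical TSS (y axis, stacked reads, log scale; genes without a peak in both replicates at the bottom) against the CpG content of the promoter, as observed over expected CpGs (x axis), for all protein-coding genes (grey) and the 10 genes (red). To the right of the dotted line at 0.6, TWIST2, TCF4 and VIM lie at the bottom, and FN1 (23.5) and TWIST1 (50.5) lie near the lower edge of the cloud.

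Promoter sequences of 4 genes are printed to show the CpG content beside the peaks found there. Each is the 250 bases before the RefSeq start site on GRCh38.p14, printed 5′ to 3′ along transcription, with CpG dinucleotides in capitals. RefSeq promoter sequences were matched for 7 of the 10 genes, not for SNAI1, SNAI2 and TWIST1. The matched TCF4 start site lies 47765 bp from the canonical TSS. Its 250 bases hold 2 CpGs, so it is not the CpG-rich canonical promoter of TCF4. FN1 and TWIST2 carried 32 and 26 CpGs in this stretch, with heights of 26 and 21 at FN1 and no peak at TWIST2. ZEB1 carried 15 CpGs under an open region, and PRRX1 carried 6 CpGs with no peak.
ZEB1 promoter, chr10:31318167-31318416 (plus strand): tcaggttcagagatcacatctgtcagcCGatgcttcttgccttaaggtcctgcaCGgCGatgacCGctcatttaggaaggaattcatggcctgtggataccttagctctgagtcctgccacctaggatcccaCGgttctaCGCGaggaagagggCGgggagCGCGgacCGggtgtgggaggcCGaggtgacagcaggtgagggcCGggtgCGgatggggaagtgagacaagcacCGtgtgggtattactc
FN1 promoter, chr2:215436069-215436318 (minus strand): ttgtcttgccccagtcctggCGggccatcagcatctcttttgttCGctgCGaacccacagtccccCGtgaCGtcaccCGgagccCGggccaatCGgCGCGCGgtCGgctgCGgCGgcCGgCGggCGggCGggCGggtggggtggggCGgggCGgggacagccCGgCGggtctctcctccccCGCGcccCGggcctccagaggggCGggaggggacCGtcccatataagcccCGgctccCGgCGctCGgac
TWIST2 promoter, chr2:238847835-238848084 (plus strand): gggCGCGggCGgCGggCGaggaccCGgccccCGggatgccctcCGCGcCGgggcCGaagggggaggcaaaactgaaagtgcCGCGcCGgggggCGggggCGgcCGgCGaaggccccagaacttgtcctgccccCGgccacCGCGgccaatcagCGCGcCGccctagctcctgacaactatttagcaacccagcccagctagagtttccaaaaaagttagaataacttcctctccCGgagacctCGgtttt
PRRX1 promoter, chr1:170663881-170664130 (plus strand): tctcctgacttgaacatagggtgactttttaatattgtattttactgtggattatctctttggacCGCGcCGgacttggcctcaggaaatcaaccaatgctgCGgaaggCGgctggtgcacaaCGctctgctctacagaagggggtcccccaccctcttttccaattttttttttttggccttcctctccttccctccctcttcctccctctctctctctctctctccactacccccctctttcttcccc
The RefSeq start site of ZEB1 lies at -799 bp from the canonical TSS, and the 250 bases shown fall within the open region except for the first base. They hold 1 E-box, the hexamer CAGGTG or its reverse complement CACCTG, beginning 57 bases before the start site. This was the only E-box in the 7 matched promoters taken from 250 bases before to 50 bases after the start, and 20.6% of 35116 RefSeq promoters of that length hold the hexamer.

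The SNAI genes, which encode the zinc-finger repressors Snail and Slug, had the highest peaks over canonical start sites among the 10 genes. SNAI1 lies on chromosome 20 (hg38, 49982980 to 49988886, plus strand) and has 1 annotated TSS, under a region of 925 bp. Its heights of 177 (95% interval 152 to 205) and 224 (196 to 255) gave a mean of 200.5 ± 33.2 (SD, n = 2). The locus held 11 regions in both replicates in 45.9 kb, or 24.0 per 100 kb, at percentile 81.2 of all protein-coding loci. Apart from the TSS region, 5 lay upstream, 2 in the gene and 3 downstream. The strongest were at 7.69 kb downstream of the TSS (115 and 143 reads) and -17.8 kb, upstream (121 and 129 reads). Each of these 2 held at least 1 E-box within 100 bases of its midpoint. No TSS of another gene lay within 1 kb of any of the 11 regions.

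SNAI2, on chromosome 8 (48917598 to 48921740, minus strand), had peaks over its canonical TSS of 177 (152 to 205) and 209 (182 to 239) reads, a mean of 193 ± 22.6 (SD, n = 2). The region also lay within 1 kb of the TSS of a gene without a symbol (ENSG00000288761), and ATAC-seq cannot assign it to either. A second region of 100 and 113 reads lay upstream at -4.06 kb, at the TSS of another unnamed gene (ENSG00000287788). The 2 remaining regions were weak, at 32 and 33 reads in an untranslated part of the canonical transcript and 37 and 31 reads downstream. SNAI2 thus had its high regions at and just before its start, whereas those of SNAI1 were spread over both flanks.

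The ZEB genes encode large zinc-finger repressors that act on CDH1 and on microRNA genes of the epithelial state. ZEB1 lies on chromosome 10 (31318495 to 31529814, plus strand), and 13 of its 21 TSSs had a peak within 1 kb. The TSS region spanned 1541 bp and was shared with the TSS of the antisense gene ZEB1-AS1, with heights of 99 (80.5 to 120.5) and 103 (84.1 to 125) reads. It was not the strongest region of the locus. An intronic region 149 kb into the gene reached 158 (134 to 185) and 187 (161 to 216) reads, and its intervals did not overlap those of the TSS region in either replicate. A pair of intronic regions at 80.7 kb (90 and 112 reads) and 82.3 kb (98 and 129 reads) had intervals that overlapped those of the TSS region in both replicates. All 8 regions called in both replicates lay within the gene body, and none in the flanks.

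ZEB2 lies on chromosome 2 (144364364 to 144521057, minus strand) and had no TSS peak in replicate 1 at any of its 46 TSSs. In replicate 2 a peak of 17 (9.9 to 27.2) reads lay over the canonical TSS, which also neighbours the TSS of ZEB2-AS1. Inside the gene 7 regions were called in both replicates. The strongest, 63.3 kb into the gene, reached 103 (84.1 to 125) and 129 (108 to 153) reads, and the others in the gene ran from 16 to 41 reads in replicate 1 and from 16 to 46 in replicate 2. ZEB1 and ZEB2 therefore shared an intronic maximum but differed at the start site, 99 and 103 reads against none and 17.

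**Figure D3:**
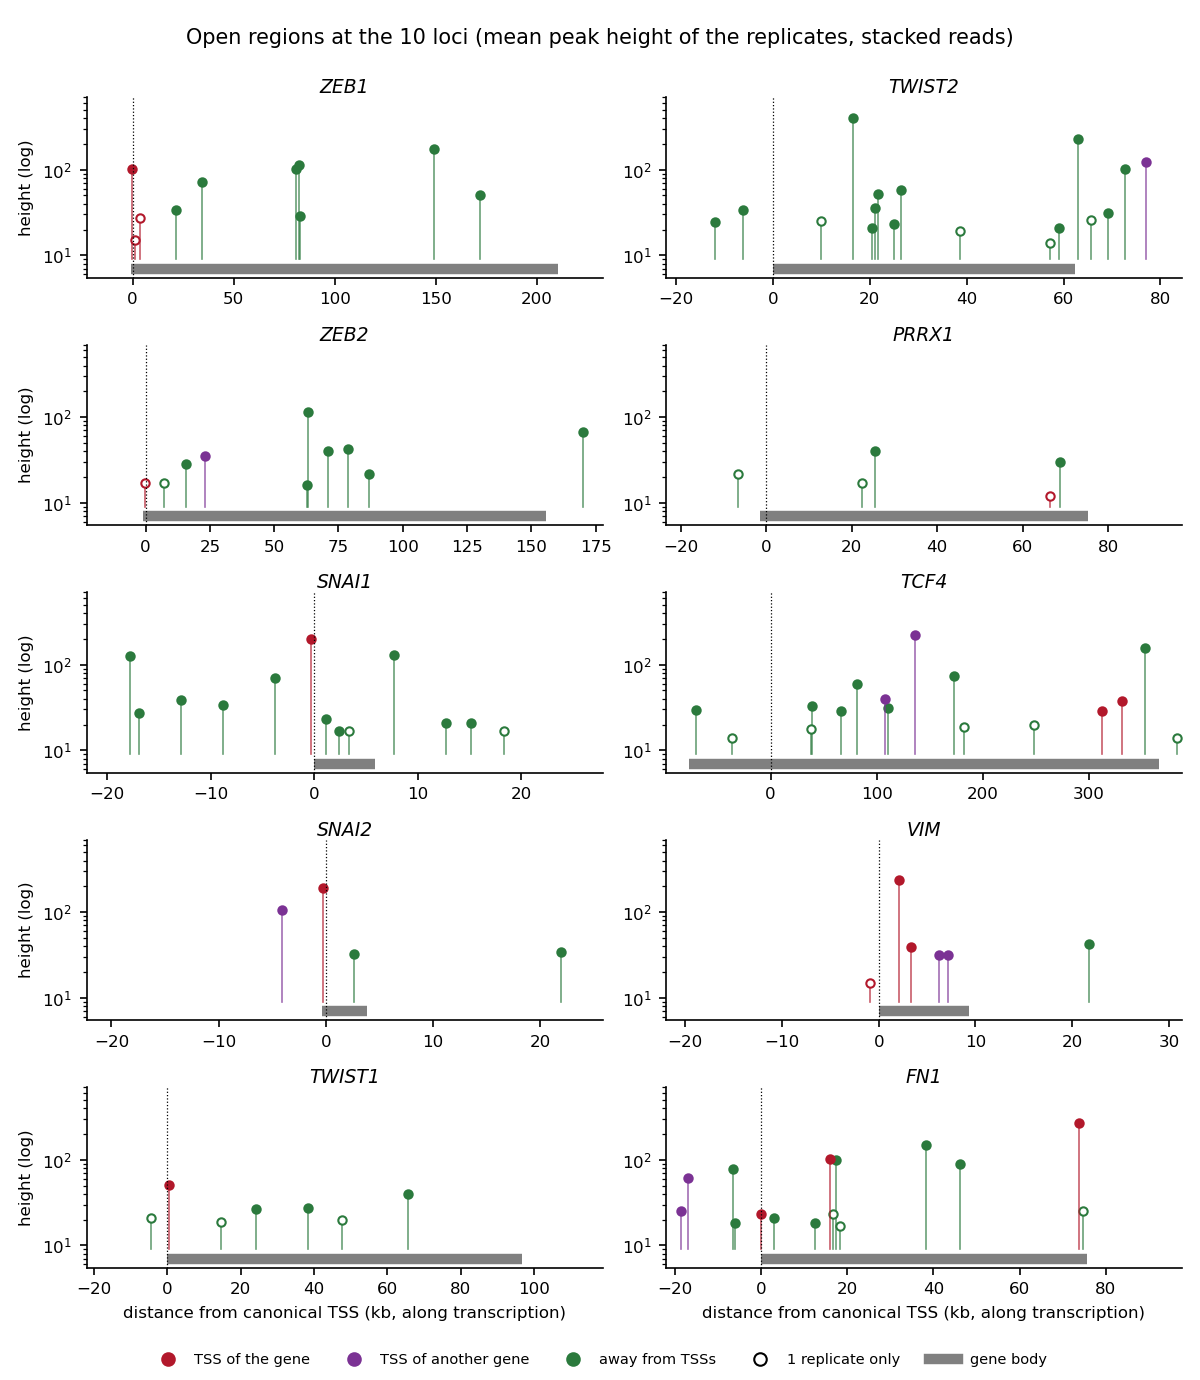
Mean peak height of the replicates (y axis, stacked reads, log scale) along each of the 10 loci (x axis, kb from the canonical TSS in the direction of transcription) for regions at a TSS of the gene (red), at a TSS of another gene (purple) and away from TSSs (green), with open circles for regions in 1 replicate only and grey bars for gene bodies. The tallest marker sits at the canonical TSS for SNAI1, SNAI2 and TWIST1, and away from it for the other 7 genes, at VIM by 2.14 kb.

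The TWIST genes encode closely related helix-loop-helix factors of mesoderm and neural crest, and their loci were arranged differently. TWIST1, on chromosome 7 (19020991 to 19117636, minus strand; the annotation includes a long transcript, so the gene body spans 96.6 kb), had its strongest region at the canonical TSS. That region was broad, 1159 bp across the coding first exon, but low, at 48 (35.4 to 63.6) and 53 (39.7 to 69.3) reads. The other 3 regions in both replicates lay in annotated introns, at 28 to 47 reads in replicate 1 and 25 to 32 in replicate 2. With 2.93 regions per 100 kb the locus stood at percentile 11.8.

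TWIST2, on chromosome 2 (238848032 to 238910534, plus strand), had no peak at any of its 3 TSSs, and no peak came closer to the canonical TSS than 6130 bp in replicate 1 or 6057 bp in replicate 2. Yet its intron held the strongest region of all 10 loci. This region, 740 bp long and 16.5 kb into the gene, reached 376 (339 to 416) and 429 (389 to 472) reads, a mean of 402.5 ± 37.5 (SD, n = 2). It ranked at percentile 97.1 and 97.7 of all regions called in both replicates. A region just past the end of the gene, at 62.9 kb, reached 224 and 237 reads, another at 72.8 kb 117 and 88 reads, and one at the TSS of the long noncoding RNA gene LINC01940 115 and 129 reads. The locus held 13 regions in both replicates, 12.7 per 100 kb, near the middle of all protein-coding loci (percentile 53.7).

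TCF4, on chromosome 18 (55222185 to 55664787, minus strand), spans 442.6 kb and has 90 annotated TSSs, of which 2 had a peak within 1 kb in both replicates. Its CpG-rich canonical TSS had no peak closer than 39339 bp in replicate 1 and 36465 bp in replicate 2. The TSS peaks lay far inside the gene, 331 kb and 313 kb from the canonical TSS, and were low, at 41 and 35 reads and at 24 and 33 reads. The strongest region, of 207 (180 to 237) and 242 (212 to 274) reads, lay in an intron at 136 kb within 1 kb of the TSS of TCF4-AS1. An intronic region at 353 kb with no TSS nearby reached 161 and 156 reads. TCF4 had 11 regions in both replicates, or 2.28 per 100 kb.

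PRRX1, on chromosome 1 (170662728 to 170739421, plus strand), had the fewest regions per 100 kb of the 10 loci. No TSS peak was listed in replicate 1, and replicate 2 had a peak of 12 (6.2 to 21) reads at an internal TSS, 66.5 kb into the gene. The canonical TSS had no peak within 25442 bp in replicate 1 and 6552 bp in replicate 2. The 2 regions in both replicates were intronic and weak, at 37 and 43 reads and at 30 and 30 reads, and their density of 1.71 per 100 kb stood at percentile 6.24. The TSS peaks of the 58 genes with one within 5 Mb had a median height of 433 in replicate 1 and 455.5 in replicate 2, which in fold enrichment was 1.95 and 1.92 times the genome-wide median. At the other 9 loci this ratio lay between 0.767 and 1.08.

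The strongest intronic regions of TWIST2, ZEB1, TCF4 and ZEB2 away from any TSS are printed by the 100 bases on either side of their midpoint, read from the plus strand of hg38. They are printed because they were as high as or higher than the start sites of their genes. Capitals mark matches, on either strand, to the motifs searched. The E-box was searched as CAGGTG and the AP-1 site as TGANTCA. Forkhead (FOX) sites were searched as TGTTTAC, while sites of GATA factors were taken as AGATAA. For AP-2 the letters were GCCNNNGGC, and the insulator protein CTCF was searched by a core of its motif. The grainyhead (GRHL) site was AACCNGTT. For TEAD factors the hexamer was GGAATG, and the hormone receptor hexamer was AGGTCA. None of these motifs contains another.
TWIST2 intron, chr2:238864471-238864671 (plus strand): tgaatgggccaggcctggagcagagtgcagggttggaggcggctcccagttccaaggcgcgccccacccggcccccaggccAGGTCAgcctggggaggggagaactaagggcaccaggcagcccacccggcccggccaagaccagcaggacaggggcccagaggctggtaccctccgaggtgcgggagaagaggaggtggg
ZEB1 intron, chr10:31468233-31468433 (plus strand): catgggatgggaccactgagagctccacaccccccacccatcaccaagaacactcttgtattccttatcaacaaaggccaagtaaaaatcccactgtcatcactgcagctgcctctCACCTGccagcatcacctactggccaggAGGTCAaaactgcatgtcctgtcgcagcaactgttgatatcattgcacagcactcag
TCF4 intron, chr18:55234677-55234877 (plus strand): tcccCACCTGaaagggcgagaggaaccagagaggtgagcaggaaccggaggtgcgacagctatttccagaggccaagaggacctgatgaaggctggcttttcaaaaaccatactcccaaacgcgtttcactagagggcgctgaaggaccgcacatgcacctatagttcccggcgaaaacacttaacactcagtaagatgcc
ZEB2 intron, chr2:144456716-144456916 (plus strand): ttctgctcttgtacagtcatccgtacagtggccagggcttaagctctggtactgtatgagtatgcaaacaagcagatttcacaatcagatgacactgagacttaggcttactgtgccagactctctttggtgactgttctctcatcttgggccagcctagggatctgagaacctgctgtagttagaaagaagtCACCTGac
ZEB1, TCF4 and ZEB2 each held 1 E-box in this window, beginning at base 117, 5 and 194. TWIST2 held none, and its only match was the hexamer AGGTCA, beginning at base 82. ZEB1 also held AGGTCA, beginning at base 145.

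Across the 78 regions called in both replicates, 17 (21.8%) held the E-box within 100 bases of the midpoint, compared with 22.6% of all 215195 regions in both replicates. Of the other motifs, AGGTCA was in 17.9% of the regions against 15.2% genome-wide, GATA in 10.3% against 9.41%, AP-1 in 6.41% against 10.2%, AP-2 in 6.41% against 11.7%, TEAD in 10.3% against 13.7%, FOX in 5.13% against 5.63%, CTCF in 6.41% against 4.81% and GRHL in 1.28% against 2.79%. With 78 regions, a share of 6.41% stands for 5 regions. Among only the 50000 strongest peaks of each replicate, 14 regions of these loci remained, of which 8 (57.1%) held the E-box, against 22.8% of the 46765 regions that remained genome-wide. This is a description of 14 regions, several of which share a locus.

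Of the structural genes, VIM had open chromatin close to its start but not over its canonical TSS. VIM lies on chromosome 10 (17228241 to 17237593, plus strand), and its main region, 1310 bp long, reached 226 (197 to 257) and 247 (217 to 280) reads, a mean of 236.5 ± 14.8 (SD, n = 2). The region was centred 2.14 kb downstream of the canonical TSS and began 325 bp past the first coding base in replicate 1 and 305 bp past it in replicate 2. It covered internal VIM start sites and lay within 1 kb of the TSS of VIM-AS1, and 6 of the 9 VIM TSSs had a peak within 1 kb in both replicates. As a TSS peak it stood at percentile 51.6 of all protein-coding genes with one. The other 4 regions in both replicates ran from 28 to 40 reads in replicate 1 and from 25 to 49 in replicate 2.

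FN1, on chromosome 2 (215360440 to 215436073, minus strand), showed the reverse arrangement, with a covered but weak promoter and stronger regions further in. Over the canonical TSS, shared with the divergent transcript FN1-DT, the heights were 26 (17 to 38.1) and 21 (13 to 32.1) reads, and by the mean of the replicates 8 of the 12 regions called in both were higher. The highest, 248 (218 to 281) and 288 (256 to 323) reads, lay 73.9 kb into the gene near its 3′ end. In replicate 1 its edge was 905 bp from an internal TSS and in replicate 2 1223 bp, so it counted as a TSS peak in replicate 1 alone. A region of 84 and 120 reads crossed the same 1 kb limit the other way, at 1035 bp in replicate 1 and 981 bp in replicate 2. The strongest TSS peak of FN1 by the 1 kb rule was therefore 248 in replicate 1 and 120 in replicate 2 from different places. A region over a coding exon at 38.2 kb reached 128 and 169 reads.

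By the strongest peak at any TSS the order was VIM (236.5 on average), SNAI1 (200.5), SNAI2 (193), FN1 (184, from 2 different regions), ZEB1 (99 and 103 in the replicates), TWIST1 (50.5) and TCF4 (38.0). SNAI1 and SNAI2, and SNAI2 and FN1, overlapped in their replicate values. The other neighbours in this order did not. The medians over all protein-coding genes with a TSS peak were 221 and 237.

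Summed over their length, the 10 loci were sparse, with TCF4 (482.6 kb) and ZEB1 (251.3 kb) the longest. Their 1541.5 kb held 78 regions in both replicates, or 5.06 per 100 kb, against 11.3 per 100 kb summed over all protein-coding loci. SNAI1 and TWIST2 alone were above the median locus of 11.6 per 100 kb. FN1, VIM and SNAI2 stood at percentiles 45.6, 44.8 and 40.4 of all protein-coding loci. ZEB2, ZEB1, TWIST1, TCF4 and PRRX1 stood between 6.24 and 16.8. Of the 78 regions, 40 (51.3%) lay in gene bodies away from TSSs, 11 (14.1%) within 1 kb of a TSS of the gene itself (2 of them, at FN1, through the peak of 1 replicate only), 9 at a TSS of another gene, 9 in the upstream and 9 in the downstream flank. The same division is not given for all protein-coding loci, so whether these shares are particular to the 10 genes was not tested. The regions in gene bodies had a median height of 35 and 36 reads, and the TWIST2 intron was the highest of them.

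Of the 103 regions, 78 (75.7%) were called in both replicates, against 77.1% of all regions. The 25 found in 1 replicate were weak, from 12 to 27 reads with a median of 18. Among the 78, the height in replicate 2 over that in replicate 1 had a median of 1.16 (range 0.658 to 1.74), and 55 regions were higher in replicate 2. Over all regions called in both replicates the median ratio was 1.07. No region had Poisson intervals that failed to overlap between the replicates.

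**Figure D4:**
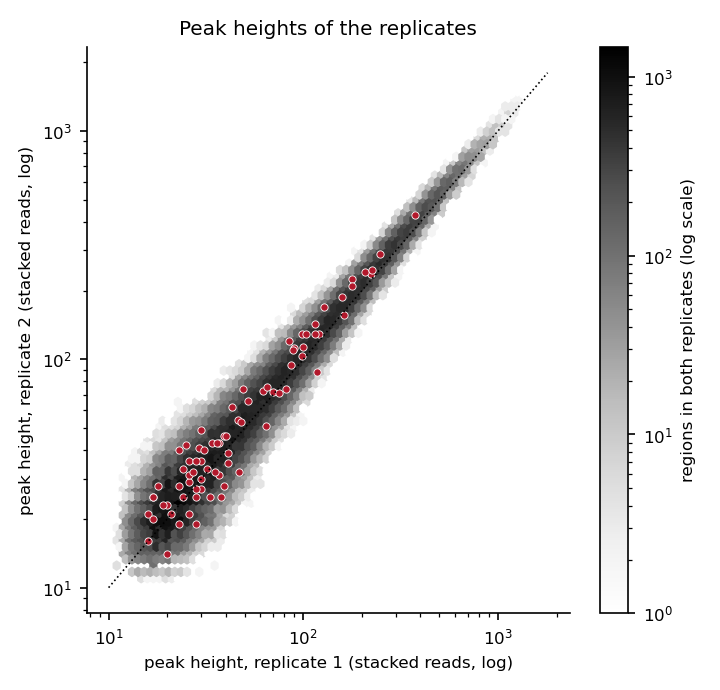
Peak height in replicate 2 (y axis) against replicate 1 (x axis), both in stacked reads on log scales, for all regions called in both replicates (grey shading by number) and the 78 regions of the 10 loci (red). The red points follow the dotted line of equal heights up to the TWIST2 intron at 376 and 429.

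Genes of the epithelial state include targets of the SNAI and ZEB repressors. All 18 junction, keratin and epithelial regulator genes in the list, CDH1 among them, had a peak over the canonical TSS in both replicates. The share over all protein-coding genes was 65.0%. The median height over the canonical TSSs of the 18 genes was 461 in replicate 1 and 520.5 in replicate 2. The lowest values over a canonical TSS in this list were 124 in replicate 1 and 184 in replicate 2, against a highest of 177 and 224 among the 10 genes. Surroundings differed too. Within 5 Mb of the epithelial genes, the median TSS peak ran from 0.687 (TJP1, replicate 2) to 1.84 (RAB25, replicate 1) times the genome-wide median in fold enrichment. For the 10 genes it ran from 0.767 to 1.08, apart from PRRX1 (1.95 and 1.92). Heights were not adjusted for this, and a part of DNA copy number was not tested. By the strongest TSS peak, ELF3 (982 and 1046 reads), an epithelial ETS factor, and CLDN4 (689 and 751), a tight junction claudin, were highest, and the tight junction genes CLDN7 (193 and 184) and TJP1 (190 and 234) lowest. CDH1, the target of the SNAI and ZEB repressors, stood at 386 and 368.

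Of 12 further transcription factor genes, 9 (75%) had a TSS peak in both replicates and 8 had one over the canonical TSS (66.7%), against 79.3% and 65.0% of all protein-coding genes. The median height over the covered canonical TSSs was 185.5 and 173.5. KLF8 (296 and 319 reads at its strongest TSS) and SNAI3 (254 and 313) were highest. LEF1 (49 and 43), which acts in Wnt signalling, and FOXC2 (19 and 19), a forkhead factor of mesoderm, were lowest, and PRRX2, ETS1 and TBXT had no TSS peak in both replicates. Among 20 further mesenchymal marker genes, 18 (90%) had a peak within 1 kb of some TSS but 6 (30%) over the canonical TSS, against 79.3% and 65.0% of all protein-coding genes. POSTN and THY1 had no TSS peak in both replicates. CpG-rich canonical promoters were found in 5 of these 20 genes, in 13 of the 18 epithelial genes and in 64.8% of all protein-coding genes. S100A4 (445 and 585), a calcium-binding protein, and SPARC (366 and 341), a matrix protein whose canonical TSS was uncovered, were highest. By the mean of the replicates LUM (20 and 13), a matrix proteoglycan, and CDH11 (19 and 20), a mesenchymal cadherin, were lowest, although FAP (17 and 23) was lower than both in replicate 1.

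Genes of the TGF-beta pathway, a main inducer of the transition, were also read. All 9 had a TSS peak in both replicates and 8 had one over the canonical TSS, SMAD7 being the other, against 79.3% and 65.0% of all protein-coding genes. The receptor gene TGFBR2 was lowest at 52 and 55 reads and the ligand gene TGFB2 next at 108 and 113 by its mean over the replicates. By the same mean TGFB3 (227 and 437) and SMAD2 (258 and 297) were highest. TGFB3 led through replicate 2 only, where the peak over its canonical TSS was 303, and in replicate 1 TGFBR1 (267) was highest.

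**Figure D5:**
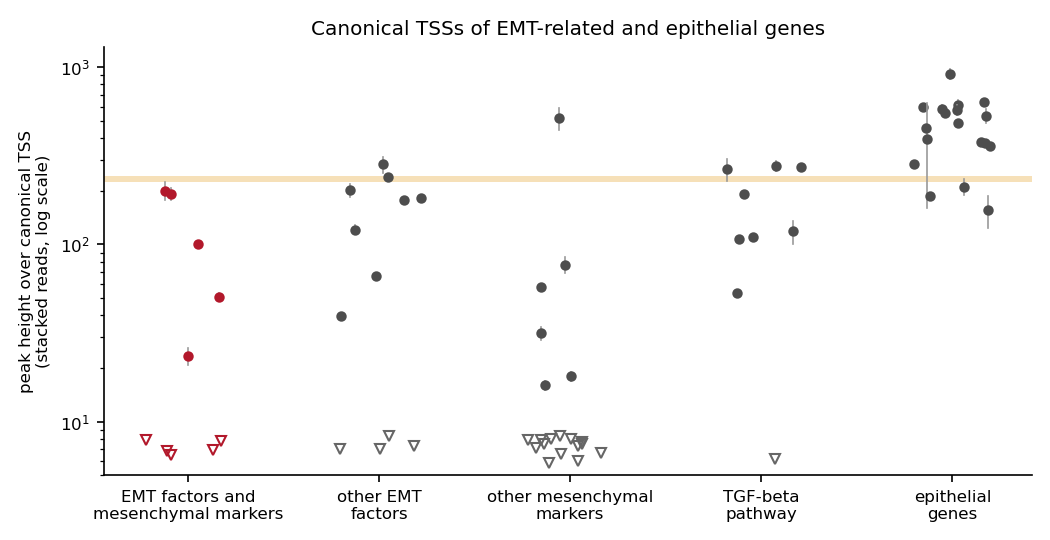
Peak height over the canonical TSS (y axis, stacked reads, log scale) for the 10 genes (red), the further EMT factors, mesenchymal markers, TGF-beta pathway genes and epithelial genes (grey), each point the mean of the replicates with a line between their values, open triangles for genes without a covered canonical TSS in both replicates, and a band at the medians of all covered genes (226 and 243). All 18 epithelial genes are covered, against 5 of the 10 genes, 6 of the 20 mesenchymal markers and 65.0% of all protein-coding genes.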

How the data were processed

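ATAC-seq of 2 biological replicates of CAMA-1 cells was analysed from the deposited peak lists. According to the submitters' processing notes, the authors used Trim Galore 0.6.5, Bowtie2 2.3.5.1, MACS2 2.2.6 and hg38. Peaks were called per replicate, and the caller's settings and the handling of duplicates are not given in the sources used here. Each deposited line gives a score (10 times the −log10 q, rounded down), a fold enrichment (a ratio over 1 background level per replicate) and −log10 p and q values. Fold enrichments were whole multiples of 0.230 in replicate 1 and 0.221 in replicate 2, and the height is that multiple less 1. Recomputing p from heights and a background of 3.35 and 3.52 reads gave the deposited −log10 p within 0.01 for 100% of the lines checked. Genes came from GENCODE release 44 and sequences from hg38 and RefSeq. Analyses used Python 3.11.15 with numpy 2.4.6 and scipy 1.17.1, and were checked on simulated data. With 1 condition, no test between groups was run. The genes, lists and motifs were chosen with earlier results of these data known. Named genes were all 10 members and, of each other list, those without a TSS peak in both replicates and the 2 highest and 2 lowest by the mean TSS peak. CDH1, SMAD7, CD14, FAP and TGFBR1 were named outside this rule after their values were seen.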

Additional observations from a re-analysis of the deposited data

How the results depend on the processing

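Of 85 alternative values over 12 results, 55 stayed within the replicate SD or 1.5 times the count and 30 moved; the cause was not tested beyond what each setting removes. No paired analysis was possible because the 2 samples are replicates of 1 condition. With only the 50000 strongest peaks per replicate, 4 of the 10 genes and 6 of the 20 further mesenchymal genes had a TSS peak, against 61.5% of all genes. Of the 10 genes, 2 had a covered canonical TSS, for which the share of all genes is not given at this setting. The 14 regions that remained (0.908 per 100 kb) lay in 28.6% at a TSS of the gene. They held the E-box in 57.1%, against 22.8% genome-wide. The median percentile of the TSS peaks was 26.7, against 40.3 with the main settings. That main median is the value of FN1, whose TSS peaks came from different regions in replicate 1 (percentile 56.1) and replicate 2 (24.5). Requiring a −log10 q of at least 10 gave 83.3% of regions in both replicates, 4.22 regions per 100 kb and 15.4% at a TSS. The E-box was then in 26.2% of the regions, against 22.4% genome-wide. Flanks of 50 kb gave 119 regions, 5.56 per 100 kb and 9.24% at a TSS, and gene bodies alone 19.6%. A TSS distance of 100 bp gave 7.69% at a TSS and 11 of the 20 further mesenchymal genes, against 73.2% of all genes. A distance of 3 kb gave 33.3% and a median percentile of 23.8, and the canonical TSS alone 6.41% and 23.4. Motif windows reaching 50 and 250 bases to each side gave the E-box in 15.4% and 35.9% of regions, against 12.6% and 42.9% genome-wide. Leaving out 1 replicate gave 5.58 to 6.23 regions per 100 kb, 12.8% to 14.6% at a TSS, 18.6% to 19.8% with the E-box, and a median percentile of 21.2 (without replicate 1, where the low TSS peaks of ZEB2 and PRRX1 also enter) to 40.1. Peak lists hold only what passed the caller's threshold, so heights below 11 reads were not measured.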
